A study of Caenorhabditis elegans with 2 samples.

Results

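The genes mxl-2, mml-1 and mxl-1 were chosen by name and position, as 3 of 19973 protein-coding genes, and every peak candidate whose summit lay within 10 kb of their annotated spans was examined. They encode the tagged protein MXL-2 itself, its partner MML-1 and the Max-like protein MXL-1 of Caenorhabditis elegans. Chromatin immunoprecipitation with sequencing of MXL-2 had been done on 2 biological replicates of whole L4 larvae, 48 h old, of strain RW12316, which carries mxl-2 fused to TY1, EGFP and 3xFLAG at its own place on chromosome III through an insertion made with CRISPR. Both replicates are of the same strain and stage and form 1 group, with the worms synchronised as starved L1 larvae after bleaching, and the precipitation used an antibody against GFP, although the labels enter the antibody as mxl-2. Chromatin had been sheared by sonication to 200 to 800 bp. A possible control experiment named in the labels was not analysed here, so nothing was compared between groups and no test was made. The labels do not give which end of the protein carries the tag or in which cells of the whole animal it was present.

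MXL-2 is the worm relative of mammalian Mlx, and MML-1 that of the Mondo proteins, MondoA and ChREBP. These basic helix-loop-helix leucine zipper proteins pair with each other and are known to bind E-boxes, of which CACGTG is the classic form, and in mammals they couple glucose supply to transcription. In the worm, MML-1 and MXL-2 act in longevity and in cell migration. MXL-1 is a Max-like protein that pairs with the Mad-like protein MDL-1, which makes a second arm of the same network, and MXL-3 is a further Max-like protein that is known to act in the response to feeding.

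The data are ranked lists of candidates, each with an enrichment signal as the authors' peak caller gave it, on a scale of its own in each list, and an irreproducible discovery rate (IDR), the estimated share of candidates at that level or better that would not be found again. The whole-experiment list held 91788 candidates, the list of replicate 1 held 56474 and that of replicate 2 held 51771. Every line of the thresholded lists has an IDR of 0.01 or lower, but not every such candidate is in them: the whole-experiment list had 1104 such candidates and 983 thresholded lines. After overlapping lines were joined, the thresholded lists held 968 regions for the whole experiment, 448 for replicate 1 and 454 for replicate 2. Read numbers are not part of the lists, and library depth is unknown. Within 10 kb of the 3 genes lay 55 candidates of the whole-experiment list, 42 of replicate 1 and 41 of replicate 2.

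Only mml-1 of the 3 had a thresholded region within 10 kb in the whole-experiment list, and that region lay beyond its 3' end, inside the neighbouring gene T20B12.4. The strongest candidate upstream of mml-1 missed the limit, but 2 CACGTG sites lay inside its interval. Neither mxl-2, the gene that carries the tag, nor mxl-1 had a candidate near the limit in the whole-experiment list, their lowest IDR values being 0.177 and 0.153. For background, 17.1% of all protein-coding genes had a region within 10 kb in this list, so 1 of 3 genes with a region is not a result about these genes. In the list of replicate 1 the share of all genes was 8.62%, in that of replicate 2 it was 8.74%, and in the conservative list, a second whole-experiment list, it was 17.8%; none of the 3 genes had a region in any of these lists.

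The sequence of the upstream mml-1 candidate is shown because it carries both sites. It is given on the minus strand, which is the strand of mml-1, on ce11, at chrIII:7376483-7376742, and capitals mark CACGTG.
mml-1 upstream candidate: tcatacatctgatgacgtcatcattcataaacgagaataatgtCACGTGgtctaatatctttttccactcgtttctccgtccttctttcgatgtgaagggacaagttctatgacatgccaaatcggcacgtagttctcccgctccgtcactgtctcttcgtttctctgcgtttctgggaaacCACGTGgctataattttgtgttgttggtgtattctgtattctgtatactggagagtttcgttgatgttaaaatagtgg

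The sites with 10 bases to either side are compared below, each read on the strand of its gene and named by its distance from the annotated 5' end, where a minus sign means upstream. Capitals mark CACGTG. The 10 sites of mml-1, mxl-2 and mxl-1 outside 3' UTRs come first, followed by 4 sites under strong candidates near mdl-1 (signals 1615 and 1292) and mxl-3 (750.3 and 472), for comparison. Another strong mxl-3 candidate, of signal 579.3, has sites at −7964 and −7993 bp that are not shown. The site at −7964 bp has t on both sides of CACGTG, as has the mml-1 site at −369 bp.
mml-1 at −369 bp, chrIII:7375087-7375112: tttagtcggtCACGTGttgtaacaac
mml-1 at −1827 bp, chrIII:7376545-7376570: tctgggaaacCACGTGgctataattt
mml-1 at −1966 bp, chrIII:7376684-7376709: agaataatgtCACGTGgtctaatatc
mxl-2 at 3371 bp, chrIII:184747-184772: taatttccgaCACGTGgatgatgatg
mxl-2 at −1713 bp, chrIII:189831-189856: catcgaaaacCACGTGgcgtttctac
mxl-2 at −3928 bp, chrIII:192046-192071: acaatagagcCACGTGgcaaaatata
mxl-2 at −4026 bp, chrIII:192144-192169: tattgaggccCACGTGgaggtactcg
mxl-2 at −4505 bp, chrIII:192623-192648: cgtggctttcCACGTGgattttcacg
mxl-1 at −5235 bp, chrV:11239592-11239617: tctggttggtCACGTGttgactctaa
mxl-1 at 4013 bp, chrV:11248840-11248865: gtggatgttcCACGTGtaaatcaaca
mdl-1 at −123 bp, chrX:6742216-6742241: atgcgaggcgCACGTGcatacacaca
mdl-1 at 7930 bp, chrX:6750269-6750294: aacatagaccCACGTGtgggtgcgtc
mxl-3 at −2842 bp, chrX:13353633-13353658: acgcgtaccgCACGTGaagtgttgat
mxl-3 at −667 bp, chrX:13351458-13351483: atgaacacggCACGTGaaggcgcatg

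The partner gene mml-1 (WBGene00003378, chrIII:7370130-7374731, minus strand) has 2 annotated transcripts with 11 and 9 exons, whose 5' ends lie 6 bp apart. Its window of 24602 bp held 30 candidates in the whole-experiment list, with signals from 6.33 to 59.6 and a median of 27.4. Of these summits 19 lay in coding exons, 8 in intergenic space, 2 in introns and 1 in a 3' UTR, and 9 lay inside mml-1. That is 1.22 candidates per kb, against a median of 0.975 per kb over all protein-coding genes. The conservative list had 26 candidates there, or 1.06 per kb, against a median of 1.00 per kb.

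The single region lay at 5315 bp from the mml-1 5' end, in a coding exon of T20B12.4 (chrIII:7369286-7369545, signal 59.6, IDR 0.00764). T20B12.4 runs in the opposite direction, and its own 5' end was 1706 bp away. The region ranked 1392 of 91788 candidates and 920 of 983 thresholded lines, near the lower end of that list. The replicates differed at it. In replicate 1 the overlapping candidate had a signal of 15.7 at rank 26252 (IDR 0.572), and in replicate 2 it had 41.3 at rank 663 (IDR 0.0220), for a mean of 28.5 ± 18.1 (SD, n = 2). The signal was 2.62-fold higher in replicate 2, the widest gap among the 13 candidates that mml-1 had in both lists. The replicates' lists had median signals of 15.2 and 15.7 over all candidates, and folds and SDs between them also carry any difference of scale. In the conservative ranked list the interval of the region had an IDR of 0.277. Its summit has no CACGTG within 50 bp, as the 101 bases around it show (chrIII:7369366-7369466, minus strand).
T20B12.4 exon summit: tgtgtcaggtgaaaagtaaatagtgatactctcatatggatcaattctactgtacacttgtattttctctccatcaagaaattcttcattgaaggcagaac

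Upstream of mml-1, in the intergenic space that separates it from T20B12.7, the strongest candidate lay at −1882 bp (signal 53.9, rank 2049, IDR 0.0351). Its IDR was above the limit, which the region in T20B12.4 passed. In the conservative ranked list this upstream candidate had an IDR of 0.150. Besides that region, it was the only candidate of the 3 windows with an IDR of 0.05 or lower in the whole-experiment list. Thus 1 of the 3 genes had such a candidate within 10 kb, beside 32.9% of all protein-coding genes. Here the order of the replicates was the opposite: the signal was 33.1 at rank 1356 in replicate 1, where it was the strongest candidate of the window, and 18.1 at rank 18185 in replicate 2, for a mean of 25.6 ± 10.6 (SD, n = 2) and a fold of 1.83. Neither replicate's own IDR was near the limit (0.371 and 0.702).

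The CACGTG sites at −1827 and −1966 bp stand on either side of this summit, 55 and 83 bp away, with 133 bp between them. In replicate 2 the summit lay 5 bp from the site at −1827. The third site of the promoter side, at −369 bp, lay 64 bp from the summit of a weaker candidate at −433 bp (signal 39.8, IDR 0.271). At that candidate the replicates had signals of 21.2 and 15.1, and their summits lay 44 and 26 bp from the site. So 3 of the 4 sites of the mml-1 window lay inside candidate intervals, none of which passed the limit. The fourth, at −3313 bp in the 3' UTR of T20B12.7, was inside none in the whole-experiment list and inside 1 of signal 4.51 in the conservative list. Of all 17729 CACGTG sites of the genome, 32.1% lay inside a candidate of this list, 1.47% inside a region and 14.2% within 50 bp of a candidate's summit.

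At the mml-1 promoter itself, taken as 1000 bp to either side of the 5' end, the strongest candidate had a signal of 48.3 at 731 bp, in a coding exon of the gene, with an IDR of 0.217. Over all protein-coding genes 7.04% had a promoter candidate as strong, and the median was 26.7. In the replicates' lists the strongest promoter signals were 23.9 and 25.6, a mean of 24.7 ± 1.25 (SD, n = 2), reached by 12.8% and 9.71% of genes. These were not the same candidates. That of replicate 1 had its summit at −2 bp, almost on the annotated start, and that of replicate 2 at 735 bp. A further candidate at 1311 bp had a signal of 46.9 (IDR 0.0862), with 21.3 and 26.7 in the replicates. The gene body thus carried a row of weak candidates, with none past the limit in any list.

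**Figure D1:**
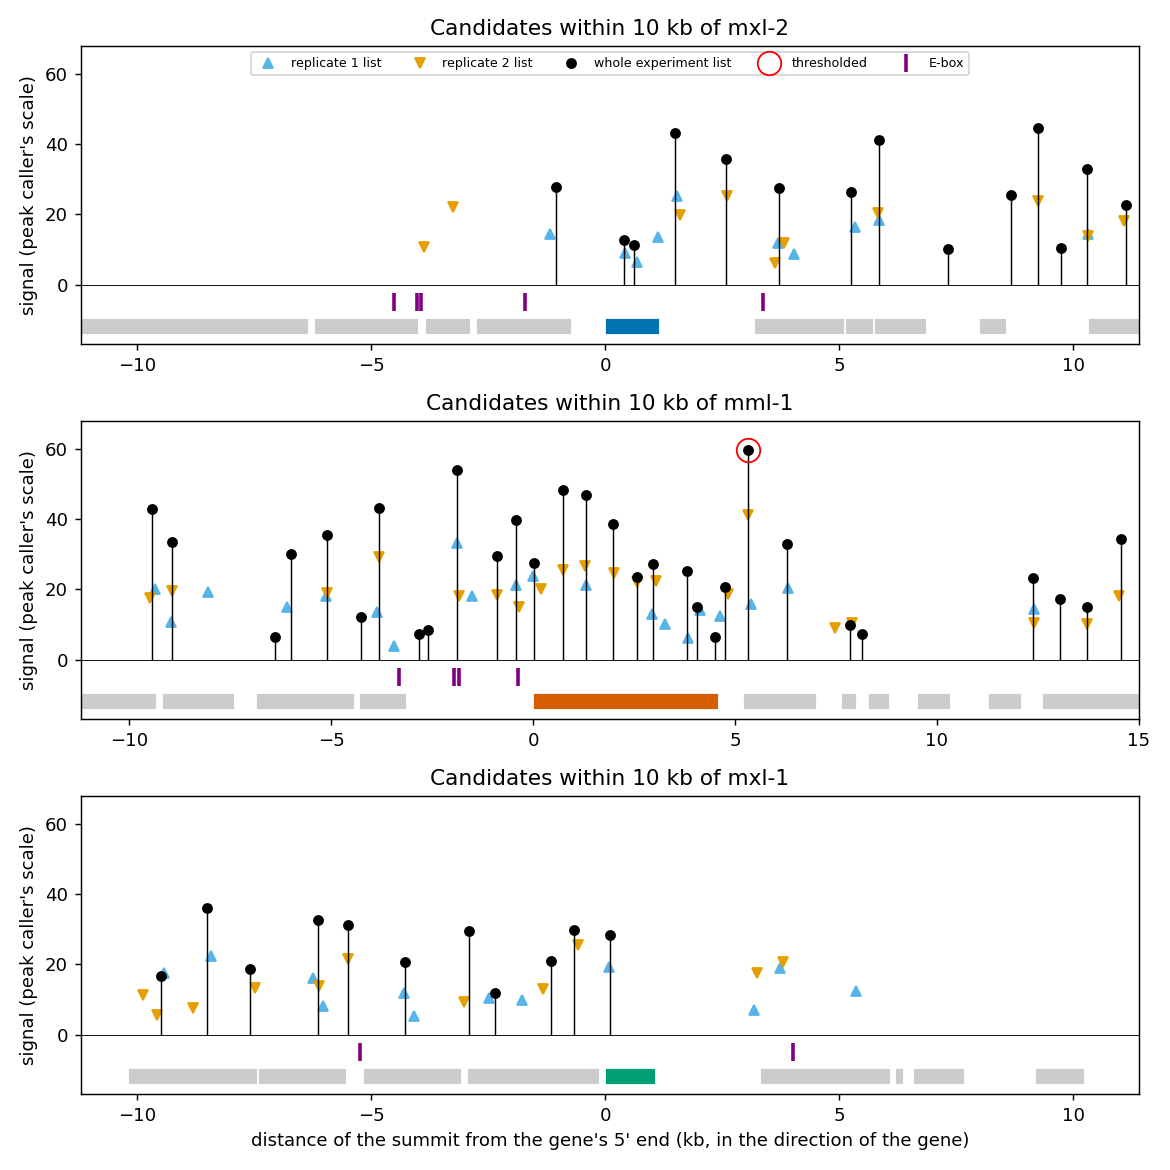
Candidates around mxl-2, mml-1 and mxl-1: each symbol is a candidate placed by the distance of its summit from the gene's 5' end in kb, in the direction of the gene, with its signal on the vertical axis; black circles are the whole-experiment list, triangles the replicates, the red ring the thresholded region, purple ticks CACGTG sites, the coloured bar the gene and grey bars other protein-coding genes. The ringed region of signal 59.6 lies beyond the 3' end of mml-1, and 3 of its 4 sites sit below candidates on the upstream side, whereas the sites of mxl-2 and mxl-1 lie apart from the black symbols.

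The tagged gene mxl-2 (WBGene00003510, chrIII:186949-188131, minus strand, 4 exons) had 14 candidates in a window of 21183 bp, with signals from 10.1 to 44.6 and a median of 26.9. At 0.661 per kb its window was sparser than most, and 81.0% of genes had as many candidates per kb or more. The lowest IDR was 0.177, and in the conservative ranked list it was 0.112. Both belonged to the strongest candidate (chrIII:178763-179022, signal 44.6, rank 4952), which lay 9238 bp downstream, over the noncoding RNA gene F40G9.20 and nearest to the 5' end of F40G9.6. Replicate 2 had 23.8 there, at rank 6747, and no candidate of replicate 1 overlapped it.

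The strongest candidate close to mxl-2 lay just past its 3' end, in the pseudogene btb-1 (chrIII:186508-186767, signal 43.2, rank 5786, IDR 0.630, or 0.120 in the conservative ranked list). It was the strongest of replicate 1 in the window (25.4), and replicate 2 had 19.9, for a mean of 22.6 ± 3.83 (SD, n = 2). The strongest of replicate 2 was another one, at 2587 bp, with a signal of 25.2 at rank 5176 of 51771 and no counterpart in replicate 1. In the whole-experiment list, which has its own scale, this candidate had 35.7 at rank 13102 of 91788. Inside mxl-2 itself lay 2 weak candidates, at 411 and 627 bp, with signals of 12.7 and 11.2 and ranks of 76357 and 79812. Replicate 1 had 3 candidates in the gene, with signals of 13.5, 9.06 and 6.50, and replicate 2 had none.

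On the upstream side, mxl-2 had only 1 candidate in the whole-experiment list, at −1059 bp in a coding exon of ubc-20, a ubiquitin-conjugating enzyme gene (signal 27.9, rank 29115). The remaining 8941 bp of the window up to its edge held none, against a median longest stretch of 3301 bp over all genes. Replicate 2 had 2 candidates there, of signal 22.1 in an intron of cox-17, a cytochrome oxidase assembly gene, and 10.6 at −3871 bp. The window held 5 CACGTG sites, 4 of them upstream, and none lay inside a candidate of the whole-experiment list. The site at −3928 bp lay inside the replicate 2 candidate of signal 10.6, whose rank was 43543 of 51771. The mxl-2 promoter was at the low end, with a strongest signal of 12.7, which 79.4% of genes reached or passed.

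The Max-like gene mxl-1 (WBGene00003509, chrV:11244839-11245926, plus strand, 2 exons) had 11 candidates in 21088 bp, or 0.522 per kb, with signals from 11.7 to 36.0. The median over all protein-coding genes was 0.975 per kb. The conservative list had 19 candidates there, or 0.901 per kb, against a median of 1.00 per kb. In the whole-experiment list the strongest candidate of the mxl-1 window lay at −8496 bp in a coding exon of T19B10.5 (chrV:11236213-11236472, signal 36.0, rank 12708, IDR 0.437), and 88.0% of protein-coding genes had one as strong within 10 kb. The lowest IDR, 0.153, belonged to the candidate at −6140 bp in an intron of dvc-1, a gene for a DNA-protein crosslink repair protease, which overlaps the antisense RNA gene anr-7 (signal 32.6, with 16.03 and 13.8 in the replicates). In the conservative ranked list this candidate had an IDR of 0.462.

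At the mxl-1 promoter the place of the signal among all genes differed between the lists. The candidate at −654 bp, in a coding exon of pgap-1, had a signal of 29.7, and 40.4% of genes had a promoter candidate as strong. Replicate 2 had 25.6 at this place, its strongest in the window, which 9.72% of genes reached at their promoters in that replicate, and replicate 1 had none. The candidate at 94 bp, in the coding sequence of mxl-1, had a signal of 28.4, with 19.3 in replicate 1, reached by 26.7% of genes, and none in replicate 2. Each of these 2 promoter candidates was thus listed in 1 replicate only, which does not show that the other replicate had no reads there. The conservative list had another, at 595 bp, with a signal of 12.4 and no counterpart in either replicate.

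Downstream of mxl-1 the lists disagreed. The whole-experiment list had no candidate from 94 bp to the edge of the window at 11087 bp, a stretch that 13.2% of genes matched. In the conservative ranked list the longest stretch of the window was 2648 bp, which 66.6% of genes matched. That list had its strongest candidate of the window downstream of mxl-1, at 3787 bp in mam-4 (chrV:11248496-11248755, signal 39.6, IDR 0.200). Both replicates had it in their own lists, with signals of 18.96 and 20.8. An interval that is missing from a ranked list can therefore be a candidate in another. The 2 CACGTG sites of the window, at −5235 and 4013 bp, lay inside no candidate of any list.

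The candidates of the 3 windows were shared between the replicates in part. At mml-1, 13 of the 20 candidates of replicate 1 overlapped 1 of replicate 2, with a median fold of 1.53 between their signals. At mxl-2 it was 5 of 10 with a median fold of 1.10, and at mxl-1 it was 5 of 12 with 1.68. The share over all candidates of replicate 1 is not given here, so these counts and folds are not a result about the genes. Of the whole-experiment candidates, 13 of 30 at mml-1, 4 of 14 at mxl-2 and 2 of 11 at mxl-1 overlapped candidates of both replicates. At mxl-3 the count was 14 of 26 and at mdl-1 it was 25 of 30. Over all candidates of that list the share was 28.4%.

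In order of the highest signal within 10 kb, mxl-1 and mxl-2 came last, with means of 24.0 ± 2.28 and 25.3 ± 0.137 (SD, n = 2 each). The replicates had 22.4 and 25.6 at mxl-1 and 25.4 and 25.2 at mxl-2, so the ranges of these neighbours overlap and no difference between them is shown. At each of these genes the values of the 2 replicates come from different candidates. The SD is therefore not the spread of 1 candidate between replicates. Both genes were below the median gene of each replicate, at 26.9 and 27.1. For mml-1 the values were 33.1 and 41.3, a mean of 37.2 ± 5.80, above both other members in both replicates, although the signals come from different places. The other network genes stood far above. At mxl-3 the replicates had 355 and 393, and at mdl-1 they had 817 and 785.

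**Figure D2:**
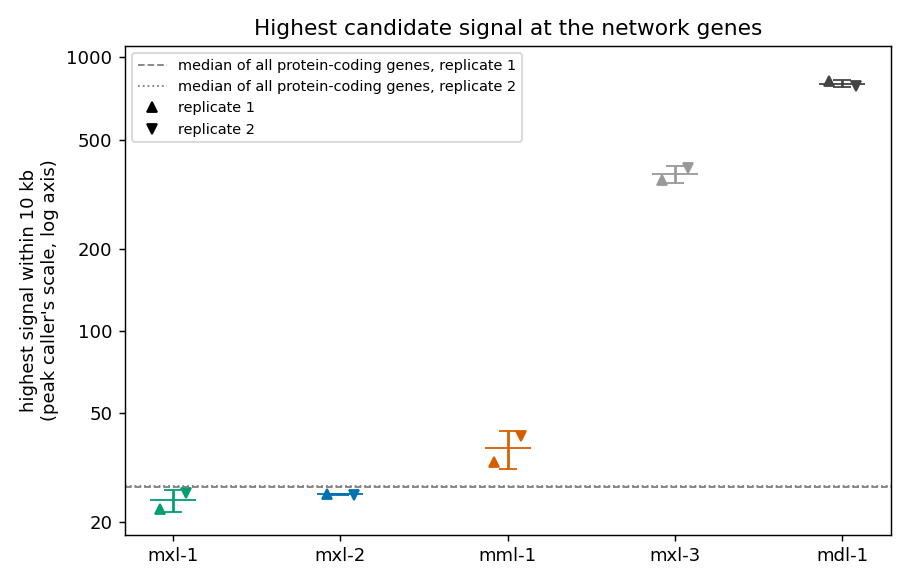
Highest candidate signal within 10 kb of each network gene: triangles are the 2 replicates, the horizontal dash is their mean and bars are 1 SD (n = 2), on a log axis, with grey lines at the medians of all protein-coding genes. The values of mxl-1 and mxl-2 sit just below the grey lines at 26.9 and 27.1, those of mml-1 at 33.1 and 41.3 above them, and those of mxl-3 and mdl-1 start at 355 and 785. For mxl-1, mxl-2 and mml-1 the values of the 2 replicates come from different candidates.

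In the whole-experiment list the highest signal was 59.6 at mml-1, 750.3 at mxl-3 and 1615 at mdl-1, so that mxl-3 was 12.6-fold and mdl-1 27.1-fold above mml-1. All protein-coding genes had a median of 47.2. The level of mml-1 was reached by 23.0% of them and that of mxl-2 (44.6) by 59.3%, while the levels of mxl-3 and mdl-1 were reached by 0.315% and 0.0601%. Within the mdl-1 window 12 regions were thresholded, and within that of mxl-3 there were 7. The difference between the members and these genes was not tested, since only 2 replicates of 1 group exist.

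**Figure D3:**
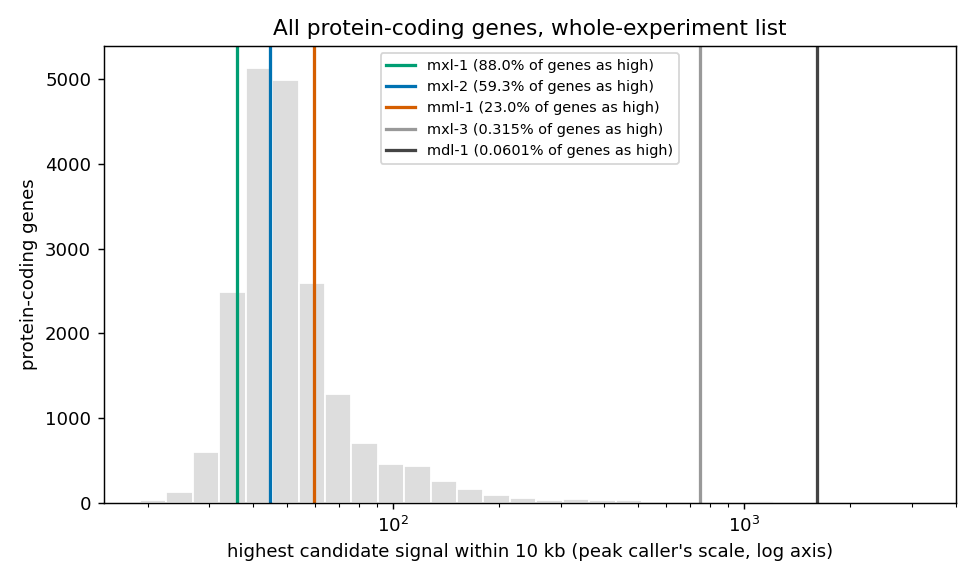
Distribution of the highest candidate signal within 10 kb over the protein-coding genes in the whole-experiment list, on a log axis, with coloured lines at the network genes; 217 genes with no candidate and those below the axis are not drawn. The lines of mxl-1, mxl-2 and mml-1 fall within the bulk of the genes around the median of 47.2, and those of mxl-3 and mdl-1 in the far tail.

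The E-boxes were counted at each gene. The mml-1 window had 4 CACGTG sites, that of mxl-2 had 5 and that of mxl-1 had 2, against a median of 4 over all protein-coding genes, 96.2% of which had at least 1. The windows of mxl-3 and mdl-1 had 12 and 17, as many as which were found for 1.92% and 0.371% of genes. None of the 11 sites of the 3 members lay within 50 bp of a candidate summit of the whole-experiment list, whereas 8 of 12 at mxl-3 and 8 of 17 at mdl-1 did, beside the 14.2% of all sites given above. At mml-1 this depends on the list, since replicate summits lay within 50 bp of the sites at −369 and −1827 bp. It also depends on the distance. Counted inside a candidate's interval of the whole-experiment list, it was 3 of 4 sites at mml-1, 9 of 12 at mxl-3 and 13 of 17 at mdl-1, and 0 at mxl-2 and mxl-1. Pairs of exact CACGTG with 5 bp between them were counted in each window, and there were 0 in all 5. That spacing is known from the carbohydrate response element of ChREBP and Mlx in mammals. Pairs with an inexact copy of the motif were not counted. The share of all genes with a pair is not given here, so the 0 is not a result about these genes. Of promoters, 28.3% of all protein-coding genes had a CACGTG within 1000 bp of the 5' end, and mml-1 was the 1 member of the 3 that did.

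**Figure D4:**
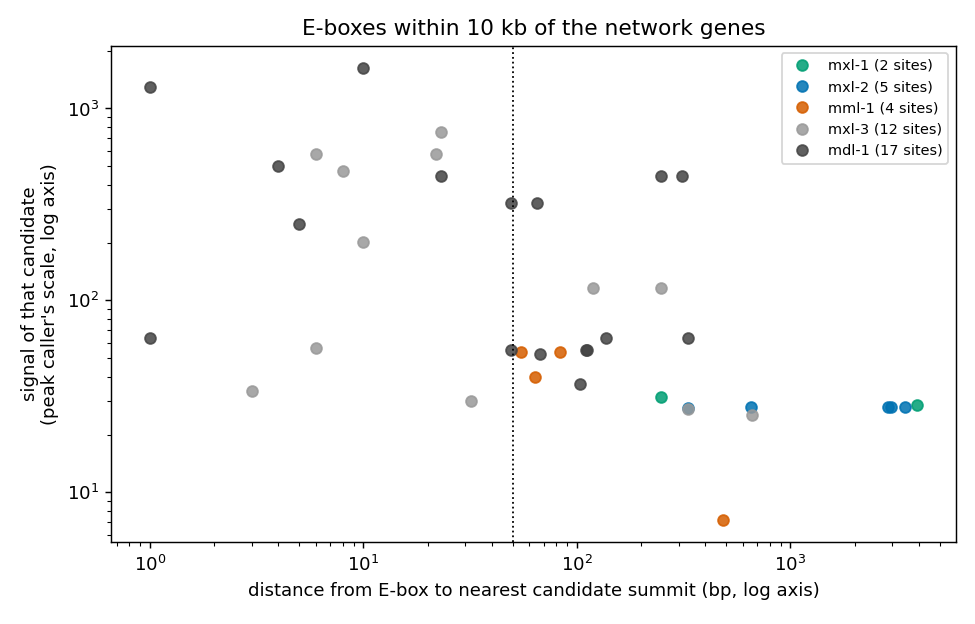
Each point is a CACGTG site within 10 kb of a network gene, placed by the distance to the nearest candidate summit of the whole-experiment list in bp and by the signal of that candidate, both on log axes; the dotted line marks 50 bp. The 3 upstream sites of mml-1 nearest to its start lie just right of the line at signals of 39.8 and 53.9, those of mxl-2 and mxl-1 lie 247 bp or farther away, and the sites of mdl-1 and mxl-3 at the left reach signals of 1615 and 750.3.

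The bases next to CACGTG differed as well. With both strands read as 1, the motif and its 2 neighbours fall into 10 classes, and the share of sites inside a region ranged from 5.13% for TCACGTGA (65 of 1267 sites, exact Clopper-Pearson 95% interval 3.98 to 6.49) to 0.534% for ACACGTGG (18 of 3370, 0.317 to 0.843). The class CCACGTGG had 0.567% (17 of 3000, 0.330 to 0.906). These intervals count sites and cover counting error only. Of the 5 sites near mxl-2, 4 were CCACGTGG and 1 ACACGTGG, and over the 3 members 8 of 11 sites fell in these 2 classes, which hold 35.9% of all sites of the genome. The class ACACGTGT had a share as small, 0.539%, and none of the 11 sites. None of the 11 fell in the 3 classes with the largest shares, TCACGTGA, GCACGTGA and GCACGTGC, which hold 16.1% of the genome's sites, while 11 of the 29 sites near mdl-1 and mxl-3 did. The classes were grouped after their values were seen, and no test was made.

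The order at its ends was alike in both replicates: regions held 3.55% and 3.79% of TCACGTGA sites, and 0.267% and 0.208% of ACACGTGG sites. These ends were picked in the whole-experiment list, which covers the same 2 replicates, so this is not an independent repeat. Coding exons held 52.8% of the CCACGTGG sites and 21.5% of the TCACGTGA sites. Outside coding exons the shares were 0.917% for CCACGTGG, 0.714% for ACACGTGG, 0.801% for ACACGTGT and 6.23% for TCACGTGA. Without the windows of mdl-1 and mxl-3, TCACGTGA had 5.14%, GCACGTGA had 3.25% against 3.58% with them, and GCACGTGC had 2.17% against 2.88%. Over all candidates, weak ones included, the classes were close to each other, with 31.6% of TCACGTGA, 34.4% of CCACGTGG and 30.8% of ACACGTGG sites inside an interval.

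Of the 3 sites upstream of mml-1, that at −1827 bp was of the class CCACGTGG, that at −1966 bp of CCACGTGA, with 1.51% of sites inside a region, and that at −369 bp of ACACGTGA, with 1.46%. The site under the strongest mdl-1 candidate, at −123 bp, was of the class GCACGTGC, with 2.88%. The site at 7930 bp near mdl-1, under a candidate of signal 1292, was of the class ACACGTGG, so a strong candidate also occurred at a class with a small share.

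Among the wider families, 11 of 41 basic helix-loop-helix genes (26.8%) had a region within 10 kb in the whole-experiment list, 8 of 41 in that of replicate 1 and 7 of 41 in that of replicate 2, beside the 17.1%, 8.62% and 8.74% of all genes given above. The list's median of the highest signal was 46.95, against 47.2 over all genes. The highest signals were those of mdl-1 and mxl-3. Next came hlh-25, hlh-26 and hlh-27, members of the REF-1 family, which share 1 region (chrII:5543436-5543695, signal 138) whose nearest 5' end is that of ins-13, an insulin-like peptide gene. The others with a region were hlh-6, hlh-11, hlh-28, hlh-29, hlh-30 and mml-1. The region of hlh-28 and hlh-29 is likewise shared, and genes that share a region are not independent of each other.

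Of 5 genes of target of rapamycin (TOR) signalling and longevity, hlh-30, the worm TFEB gene, was the 1 with a region in the whole-experiment list (chrIV:4028280-4028539, signal 72.2, with the summit 6541 bp from its 5' end), that is 1 of 5 beside 17.1% of all genes. None had a region in the list of either replicate, where 8.62% and 8.74% of all genes had one. The strongest candidates within 10 kb had signals of 59.0 at let-363, the gene of the TOR kinase, 47.2 at daf-15, the raptor gene, 49.2 at raga-1, a Rag GTPase gene, and 63.8 at lars-1, a leucyl-tRNA synthetase gene. In the conservative list lars-1 had a region too, which made 2 of 5 beside 17.8% of all genes. The median over all protein-coding genes was 47.2 and the highest signal at mml-1 was 59.6. These genes were far below mdl-1 and mxl-3.

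In likeness to the members, measured as the distance between the log2 of the highest signals in the 2 replicates over the other 40 basic helix-loop-helix genes, mml-1 was closest to lin-32, the atonal relative (distance 0.0535, signals 32.04 and 42.1), and lin-22 (0.176). The closest to mxl-2 were hnd-1 (0.125, signals 27.5 and 25.8) and ahr-1 (0.133), and to mxl-1 they were hlh-1, the MyoD relative (0.0502, signals 22.0 and 26.4), and hlh-15 (0.137). With 2 samples this likeness describes levels only.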

How the data were processed

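Peak lists on ce11 from MXL-2 immunoprecipitation in 2 replicates were analysed. Per the notes the authors deposited with the replicates' files, the lists derive from filtered alignments together with 1 other file. No aligner, caller or version is given in the sources used here. Signal in the deposited files is enrichment as the caller scaled it within each list. The deposited −log10 values are those of the IDR and were turned back into it. All thresholded lines recur among the ranked candidates that pass 0.01, but not the reverse. In the ranked lists of the whole experiment, 4 columns of signals of compared sets name no sample and were not used. Depth is unknown. The lists cap the IDR at 1e-05.

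Candidates were ranked by signal and placed by summit, with starts and ends counted from 1. Genes are those of Ensembl release 115 (WBcel235, the assembly of ce11), with symbols through WormBase identifiers from RefSeq for 19965 of 19973 protein-coding genes; 5' ends are annotated starts, in this organism often trans-splice sites. Sequences come from the RefSeq copy of WBcel235. CACGTG reads the same on both strands. Distances of 5 and 20 kb, the other lists and other E-box distances were tried as alternatives. Window counting was checked on simulated positions. The members and lists were chosen with earlier results of these data known. Named are the members, mdl-1 and mxl-3, nearest genes of the strongest candidates, list genes with a region, and the closest basic helix-loop-helix genes. Python 3.11.15 with numpy 2.4.6 was used.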

Additional observations from a re-analysis of the deposited data

How the results depend on the processing

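The absence of a region within 10 kb of mxl-2 and mxl-1 held in all 8 alternatives run (5 and 20 kb, the conservative list, each replicate's list, every line, any overlap, and 10 kb from the 5' end, the last chosen after seeing the data). The windows of 5 kb and of 10 kb from the 5' end lie inside the main one, so their 0 was fixed beforehand. The count of 1 at mml-1 was 2 within 20 kb, through a region of signal 97.2 at −12792 bp nearest to trd-1, 0 in the conservative list, and from 0 to 0 with 1 replicate left out. The highest signal was 43.2 within 5 kb and 47.1 within 20 kb at mxl-2, 29.7 within 5 kb at mxl-1 and 97.2 within 20 kb at mml-1. By the line signal of the conservative ranked list, chosen after seeing the data, it was 39.6 at mxl-1 and the same as before at mxl-2 and mml-1; the planned use of that list's compared-set signals was not run, since those columns name no sample. With 1 replicate left out it ranged from 25.2 to 25.4 at mxl-2, from 33.1 to 41.3 at mml-1 and from 22.4 to 25.6 at mxl-1, and the share of genes with a region from 8.62% to 8.74%. These values come from the remaining replicate's own list, with its own scale of signal and fewer regions (448 and 454 against 968). The share of genes with a region was 10.9% within 5 kb, 28.4% within 20 kb and 17.8% in the conservative list. The count of mml-1 sites near a candidate of the whole-experiment list, 0 within 50 bp of a summit, was 3 within 100 bp and 3 inside an interval, the latter chosen after seeing the data. For mxl-2 and mxl-1 it was 0 in each. In the replicates' own lists the mml-1 site at −369 bp lay 44 and 26 bp from a summit, and that at −1827 bp lay 5 bp from one in replicate 2. Signals of single candidates rest on lists with no read counts, so no precision can be given beyond the spread of 2 replicates.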
